A study of Drosophila melanogaster with 24 samples.

Results

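Brain transcripts of flies labelled female were compared between 9 libraries taken after traumatic brain injury (TBI) and 3 control libraries, over all genes of the count table. The 9 injured libraries are the replicates 1 to 3 taken 1, 2 or 4 hr after the strike, pooled into a single injured group. The members were chosen by their labels alone, and make up 12 of the 24 libraries of the series. The question was which transcripts differ after a strike when the 3 early times are treated as repeats of the same injury.

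All libraries came from adult mated flies of the w1118 strain, a white-eyed laboratory stock, 10 to 14 days old. Injured flies received full-body trauma from 1 strike of a modified HIT (high impact trauma) device, which throws flies in a vial against its wall, and control flies were not struck. RNA was extracted from single brains, with 3 biological replicates for each time and for control. The strike reaches the whole body, so the injured group is a model of general impact with brain RNA as the readout. Transcripts were read with QuantSeq 3′ mRNA-Seq, which counts reads near the 3′ end of polyadenylated RNA. The sources used here name no date or other batch, and the libraries shared a single sequencing lane.

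Insects answer wounds and microbes with an innate response in which the Toll and Imd pathways drive NF-kappaB factors and the secretion of small antimicrobial peptides, mostly by the fat body and also by glia and neurons. In nervous tissue, glia clear debris and support neurons, and damaged membranes are sorted and sealed by the ESCRT complexes. Mitochondria, ribosomes and the proteasome set how much energy and protein a stressed cell can make and remove.

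The injured libraries held 55416 to 1769669 counts (median 1341672), against 238289, 1193051 and 52388 counts in control replicates 1, 2 and 3. Control replicate 2 therefore carried 80.4% of all control counts. At least 1 read was found for 4831 to 8104 genes in injured libraries and for 4594 to 6693 genes in controls. When every library was thinned to 52388 counts, 4522 ± 328 genes were read in injured libraries and 4562 ± 197 in controls (SD, n = 9 and 3, two-sided exact permutation p = 0.859, also 0.859 when adjusted over the 6 values so tested; the smallest p these 220 splits allow is 0.004545). Levels below are CPM, read counts scaled to a common library total after TMM scaling, where TMM is edgeR's correction for library composition. Where control replicate 2 had no read of a gene, the level could have been up to 2.39 CPM, that of 3 counts, and up to 45.6 CPM where control replicate 3 had none. Such limits cover counting error only.

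The sex labels were checked with roX1, a noncoding RNA of the dosage compensation complex that is made in males. roX1 lay at 695 to 1235 CPM in 10 of the 12 libraries labelled female, against 609 to 1099 CPM before TMM scaling in the 12 libraries labelled male. It was low only at 2 hr replicate 2 (5.66 CPM) and 4 hr replicate 2 (76.3 CPM), and roX2, its partner RNA, followed with 1.89 and 3.23 CPM there. The yolk protein genes Yp1, Yp2 and Yp3, made mainly in females, leaned with the label. Before TMM scaling their medians were 3245, 818 and 610 CPM under the female label, against 1810, 483 and 331 CPM under the male label, with ranges that overlapped. These medians take injured and control libraries together, and Yp1 and Yp2 leaned higher in the injured female-labelled libraries, as given below. The lean with the label was not examined in controls alone. The roX RNAs thus go against the label in 10 libraries while the yolk protein medians lean with it, and the groups are called female-labelled throughout. Those 2 low-roX1 libraries stood apart in other ways. The sum of 13 neuronal markers was 702 and 2206 CPM in them, against 3165 to 7908 CPM in the other injured libraries and 5398 to 6522 CPM in controls. The sum of 22 immune peptide genes was 191623 CPM at 2 hr replicate 2, against 4259 to 14688 CPM in the other injured libraries and 3244 to 5283 CPM in controls. The counts over all genes and the medians of the main lists are therefore also given without both of them.

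**Figure D1:**
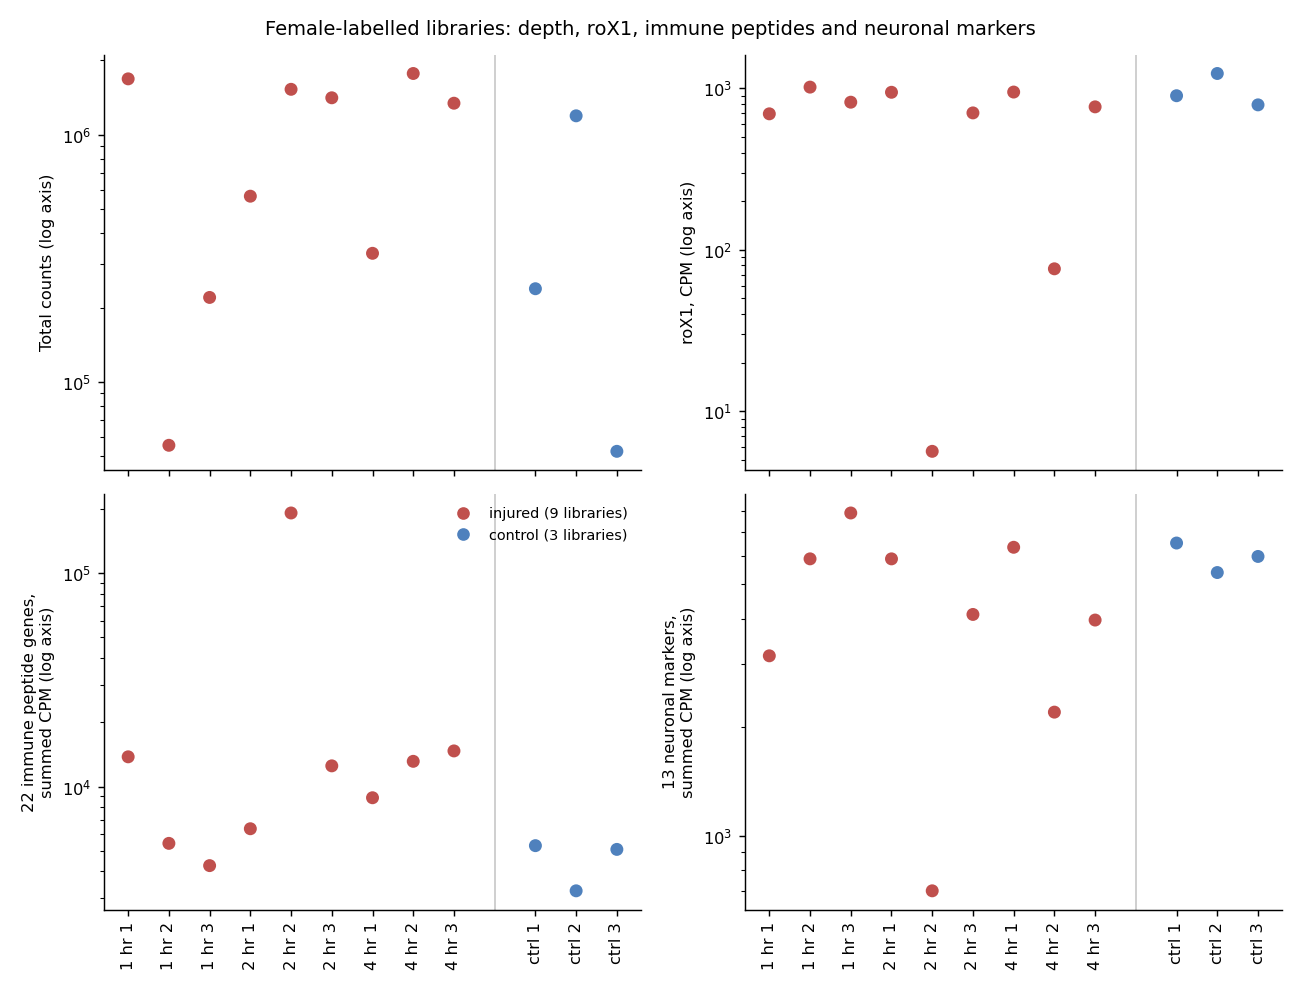
Total counts, roX1, the summed level of 22 immune peptide genes and the summed level of 13 neuronal markers in each of the 9 injured (red) and 3 control (blue) libraries, on log axes, with CPM after TMM scaling. roX1 lay outside 695 to 1235 CPM only at 2 hr replicate 2 and 4 hr replicate 2, which also had the lowest neuronal sums of 702 and 2206 CPM.

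No gene changed between injured and control libraries at an adjusted p under 0.05 with an absolute log2 fold change (log2FC) over 1. Of 9919 genes with a read, 5918 had enough counts to be tested, and 0 of these (0%) were called. The smallest adjusted p was 0.764 (edgeR's quasi-likelihood test, Benjamini-Hochberg adjustment over all tested genes), with a coefficient of biological variation of 0.776. DESeq2 and limma-voom also called 0. At an unadjusted p under 0.05 with a fold over the same limit, 360 genes (6.08%) were higher in injured libraries and 7 (0.118%) were lower. Any fold at this p was reached by 372 genes, where 5% of the genes tested would be 295.9. Below, higher and lower refer to this nominal rule when genes of a list are counted, and none of these genes is a call.

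The split of 360 higher to 7 lower genes depended on the test and the libraries. It was 171 to 149 with limma-voom and sample weights, 568 to 90 with no filter on low counts, and 103 to 43 in the 6 libraries with the fewest counts. The log2FC was positive for 3179 genes and negative for 2739, with a median of 0.08. That median is set largely by the scaling: it was -0.14 with library size alone, 0.17 with RLE size factors and 0.51 with no filter. Every injured library lay above every control for 47 genes (0.794%) and below every control for 29 (0.49%). The share of higher genes was 4.73, 7.19, 6.59, 5.16 and 6.76% over 5 equal bins of rising mean level, with no order in level. Few control reads stood behind many of them: the median was 6 reads over the 3 controls, and 150 of the 360 had at most 3.

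**Figure D2:**
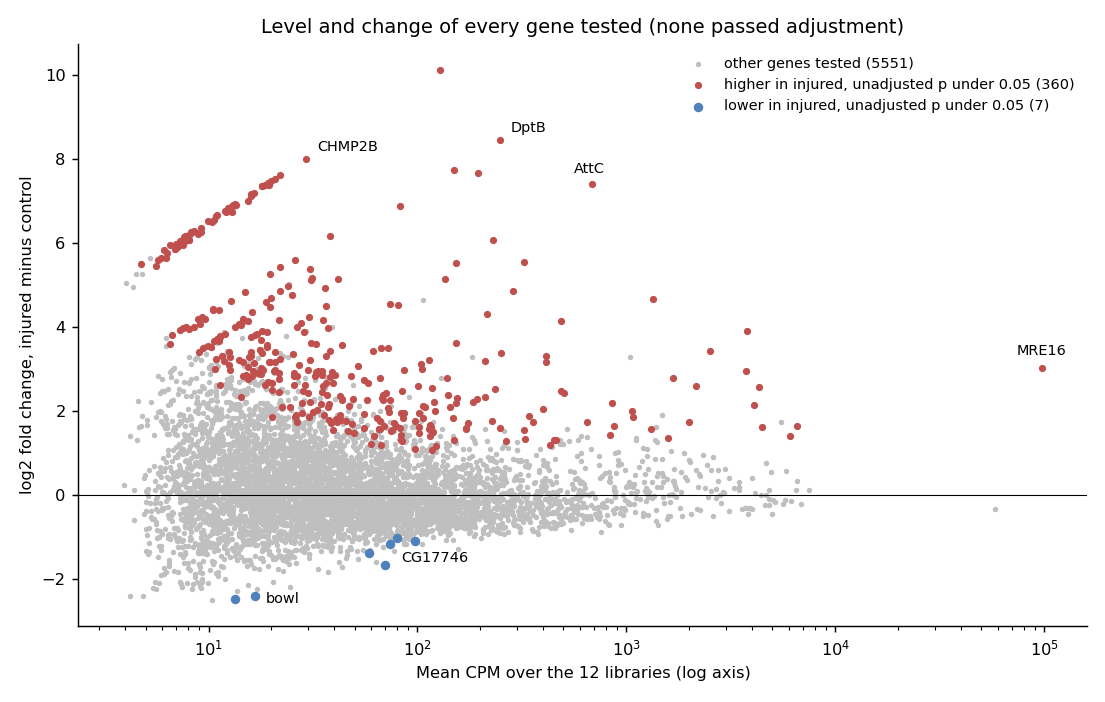
Log2 fold change of injured over control against mean CPM (log axis) for the 5918 genes tested. The 360 genes higher at an unadjusted p under 0.05 (red) spread over all levels, and only 7 genes are lower (blue). The diagonal streaks on the left are genes with 0 or 1 control reads, and with 0 the fitted fold depends on the prior count.

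The higher genes differed with library depth. Libraries with over 1000000 counts are called deep here (5 injured and control replicate 2) and those with fewer counts shallow (4 injured and 2 controls). Both low-roX1 libraries are among the 5 deep injured ones. Leaving out MRE16, described below, the higher genes made up 6.42 to 37.9% of the summed CPM scale in deep injured libraries and 1.90 to 3.2% in shallow ones, against 1.92% in the deep control and 1.88 to 2.34% in the shallow controls. The 37.9% was that of 2 hr replicate 2, and the other deep injured libraries had 6.42 to 9.60%. At equal depth, 251 to 308 of the 360 genes had a read in the deep injured libraries and 181 to 237 in the shallow ones, against 132 in the deep control and 138 to 155 in the shallow controls. The 360 genes were picked for being higher in these same injured libraries, so their excess over controls was fixed beforehand and is no evidence of a difference. In the summed share, the deep injured libraries lay further from the shallow injured ones than the latter lay from controls. When the same 5918 genes were tested in the shallow libraries, 103 were higher and 43 lower, 34 of the 103 being among the 360. A single gene, CG34212, was then called by edgeR, and it is not among the genes named for the whole group. In the deep libraries 394 were higher and 44 lower, 195 of the 394 being among the 360, with 0 called, where the lone control was assumed to vary like the others. Why the deep injured libraries stood apart was not tested.

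The count of higher genes also turned on single libraries. It was 151 without control replicate 2, with 84 of the 360 among them, 231 without 4 hr replicate 3 and 548 without 1 hr replicate 3. With the same genes tested, leaving out control replicate 2 gave 162 higher and 5 lower genes, and leaving out both low-roX1 libraries gave 333 and 40, with 268 of the 360 kept. With the filter applied anew, the counts of higher genes were 151 without control replicate 2 and 184 without both low-roX1 libraries. These fits drop 1 of 3 controls or 2 of 9 injured libraries, so their counts do not rank the libraries. The lower genes numbered 2 to 24 as each library was left out in turn.

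**Figure D3:**
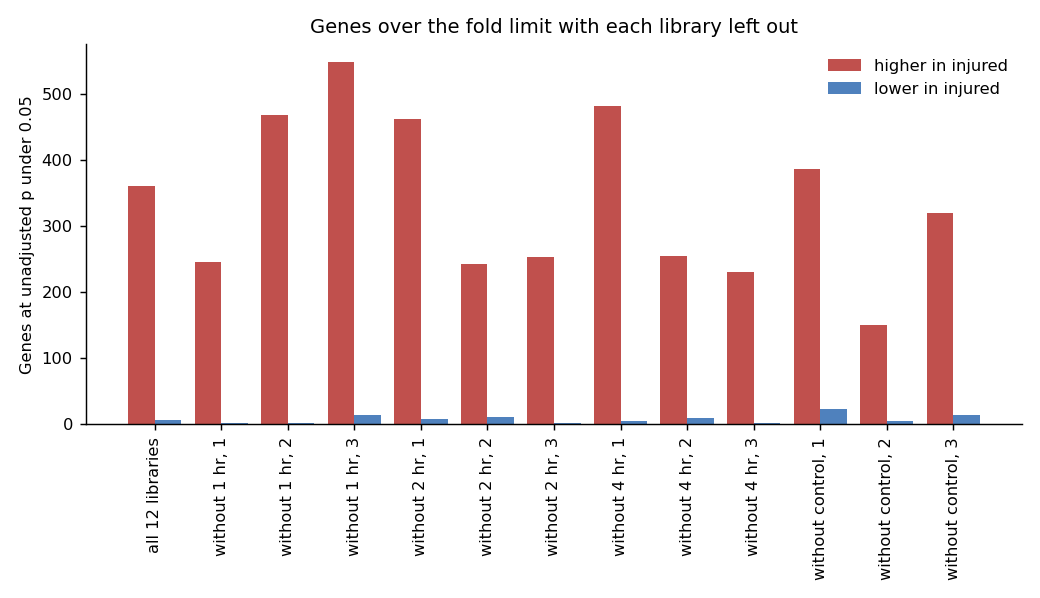
Number of genes higher (red) and lower (blue) in injured libraries at an unadjusted p under 0.05 and over the fold limit, in the fit to all 12 libraries (360 and 7) and with each library left out, the injured libraries first. The count of higher genes ran from 151 without control replicate 2 to 548 without 1 hr replicate 3.

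Among the genes with the smallest p were transcripts that no control held. Of all tested genes, 5 were read in all 9 injured libraries and in no control. CHMP2B, a subunit of the ESCRT-III complex that cuts membrane necks, had 388 injured reads, with a lowest, median and highest level of 4.23, 24.6 and 133 CPM. CG31075 had 281 reads (2.76, 15.0 and 78.3 CPM) and CG1441 had 246 reads (10.2 to 71.8 CPM). All 5 were thus read in the shallow and in the deep injured libraries, the 2 with low roX1 being among the latter. CG2453, which RefSeq lists as Coq5, a methyltransferase of ubiquinone synthesis, had 169 reads (6.81, 16.9 and 42.4 CPM). mtTFB2, a transcription factor of mitochondrial DNA, had 98 reads. With the 3 controls set to 3 reads in all, their pooled levels were at least 26.2-fold higher for CHMP2B, 19.0-fold for CG31075, 16.6-fold for CG1441, 11.4-fold for CG2453 and 6.63-fold for mtTFB2. These bounds rest mostly on control replicate 2, the deepest control. In all, 68 tested genes had no control read, and 61 of these were among the 360. Such genes passed the count filter through the injured libraries alone, which held 8903853 counts against 1483728 in controls, so their direction was fixed beforehand and is no support for the split.

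Other low transcripts of this kind had no control read, or 1 or 2 in control replicate 2 alone. CG13827, listed by RefSeq as the peroxisomal membrane gene Pex11c, was read in 8 of 9 injured libraries (212 reads) and in no control, at least 14.3-fold higher. Cct2 was likewise read in 8 injured libraries (128 reads) and no control, at least 8.66-fold higher. CG8785 had 181 injured reads and 1 control read, a pooled ratio of 36.7 with a 95% counting interval of 6.51 to 1459. Taf10, a subunit of the general transcription factor TFIID, had 269 reads and 2 reads (ratio 27.3, 7.48 to 227). Syx17, a SNARE that fuses autophagosomes with lysosomes, had 133 reads and 1 read (ratio 27.0, 4.76 to 1074). The intervals span more than an order of magnitude, because the control side rests on 1 or 2 reads. CG8785, Taf10 and Syx17 had log2FCs of 4.83, 4.47 and 4.41, and each was read in all 9 injured libraries, so also in the shallow ones, where no shallow control held a read. With at most 1.59 CPM in any control, they passed the count filter through the injured libraries alone. Their direction was thus fixed beforehand too. Other genes below with only a few CPM in every control, such as Rpt2, alrm and repo, also passed it that way, which favours a positive sign. A single read was worth 3.86 CPM in control replicate 1 and 15.2 CPM in control replicate 3, so the lack of reads there says little for such low transcripts. mtm, a phosphoinositide phosphatase, lay above all controls in 9 of 9 libraries (log2FC 3.88 ± 1.14 SE) and kept 1.67 in the shallow ones.

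MRE16, a long noncoding RNA that RefSeq lists as lncRNA:CR34335, had the highest mean level in the injured libraries, carried by the deep ones. noe, described next, lay above it in 4 of the 9, all shallow. It took 2.00 to 21.8% of counts there (median 12.5%), against 2.13, 1.11 and 1.96% in control replicates 1, 2 and 3. In 8 of 9 injured libraries its level exceeded every control. On the log2 CPM scale it averaged 16.38 ± 1.48 in injured libraries and 13.85 ± 0.45 in controls (SD, n = 9 and 3). edgeR gave a log2FC of 3.03 ± 0.79 (SE), with an adjusted p of 0.764 over all genes. Depth divided it too: MRE16 took 12.5 to 21.8% of counts in the deep injured libraries and 2.00 to 5.22% in the shallow ones, and its log2FC was 0.90 in shallow and 4.25 in deep libraries. Without both low-roX1 libraries the log2FC was 2.66.

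The other most abundant transcripts differed less. noe, another long noncoding RNA of the nervous system, ran from 11062 to 75651 CPM in injured libraries (median 67684) against 71454, 74872 and 60472 CPM in controls (log2FC -0.33 ± 0.44), its lowest values being at the 2 low-roX1 libraries. RpL41 and RpL39, proteins of the large ribosomal subunit, had log2FCs of 1.63 ± 0.71 and 1.41 ± 0.57 and were highest at 2 hr replicate 2, with 25841 CPM of RpL41. RpL15, also of the large subunit, had 0.13 ± 0.30, with a sign that turned under 4 alternatives. The ribosomal transcripts were thus unequal among themselves.

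**Figure D4:**
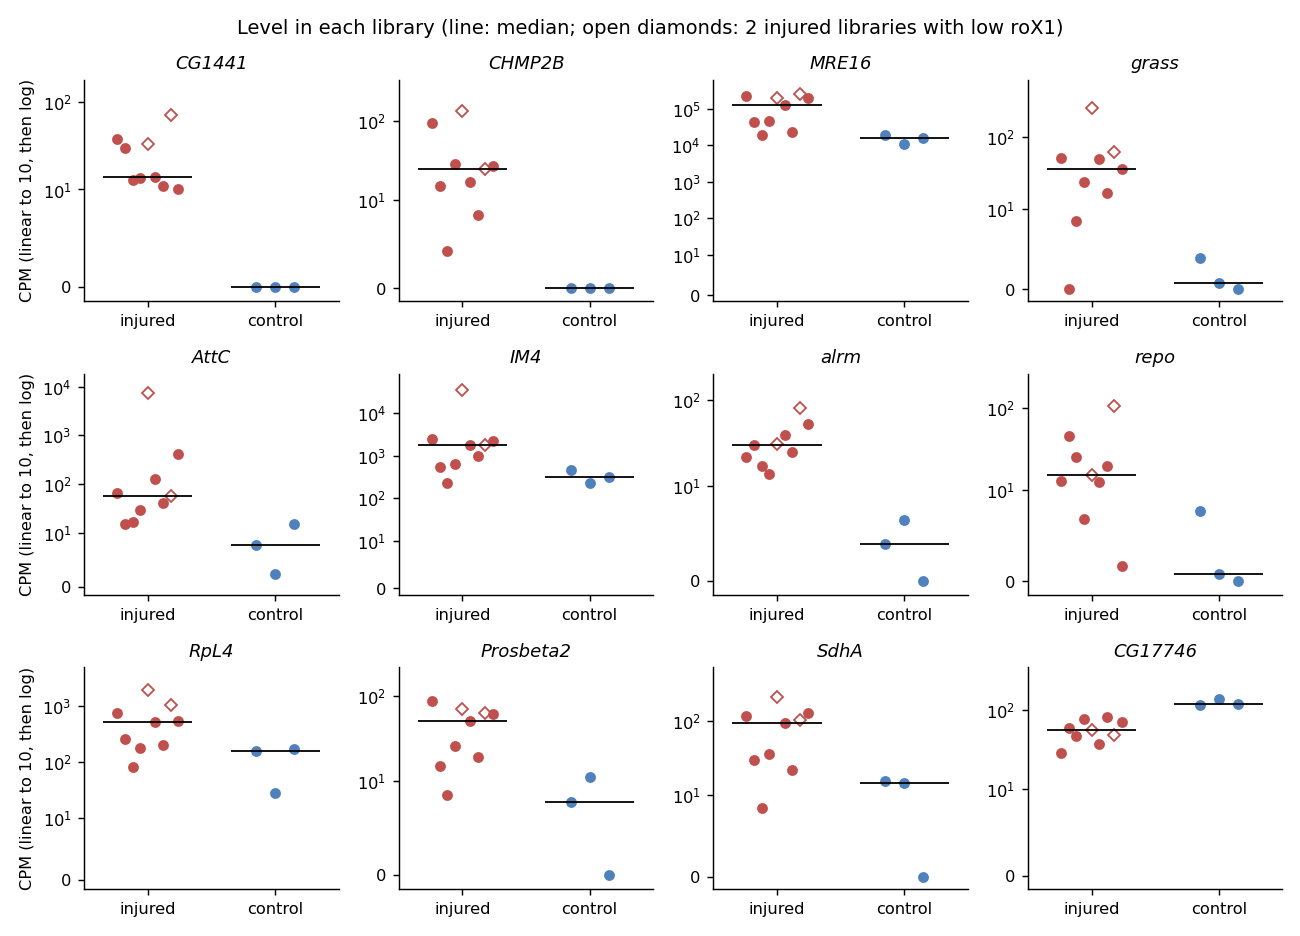
CPM in each of the 9 injured (red, left) and 3 control (blue, right) libraries for 12 named genes, on axes that are linear to 10 CPM and logarithmic above, with lines at the medians and open diamonds for the 2 injured libraries with low roX1. CG1441 and CHMP2B were at 0 in all controls, AttC and IM4 were highest by far at 2 hr replicate 2, and the injured libraries of CG17746 all lay below the controls.

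Immune peptide genes had the largest median difference of the lists. Of 19 tested, 16 (84.2%, against 6.08% of all tested genes) were higher at an unadjusted p under 0.05 and all 19 had a positive log2FC, with a median of 3.89 against 0.08 over all genes. AttC, an attacin active on bacterial outer membranes, had a lowest, median and highest level of 15.0, 57.6 and 7419 CPM in injured libraries, against 7.72, 2.39 and 15.2 CPM in controls 1 to 3. The highest value was that of 2 hr replicate 2, and 8 of 9 injured libraries exceeded every control. IM4, an immune-induced peptide that RefSeq lists as Dso1, had 224, 1736 and 34028 CPM, against 456, 226 and 319 CPM in controls. CecA2, a cecropin that lyses bacterial membranes, had 0, 22.03 and 2160.3 CPM, against 0, 1.59 and 0 CPM. In each of these the same library led, and the median injured library stood well above the controls. CecA2 had at most 1.59 CPM in any control and passed the count filter through injured libraries alone. Its direction was fixed beforehand, as was that of CecB and DptB below. The 19 positive signs include these genes and are to that extent no support.

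Further peptides were also highest in that library. CecB had 0, 11.6 and 1704 CPM in injured libraries, against 3.86, 0 and 0 CPM in controls, and DptB, a diptericin of the Imd pathway, had 0.722, 8.27 and 2796 CPM, against 3.86, 0 and 0 CPM. Drs, the antifungal drosomycin and a standard readout of Toll, had 419, 535 and 5569 CPM, against 448, 285 and 365 CPM, with a second high value of 2190.4 CPM at 4 hr replicate 2. Mtk, an antifungal metchnikowin, had 67.7, 203 and 10218 CPM against 158, 60.6 and 213 CPM (log2FC 3.29 ± 1.57), and Def, an insect defensin, 3.99 ± 2.15. These last 2 were not below an unadjusted p of 0.05. CecA1 and CecA2, DptA and DptB and the attacins are close copies, and reads may have been shared between them.

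Without both low-roX1 libraries and with the same genes tested, 11 of the 19 peptides were higher and the median log2FC was 1.49. The values of single genes were then 4.53 for AttC, 1.92 for IM4, 4.06 for CecA2, 3.29 for CecB, 4.78 for DptB, 1.44 for DptA, 0.69 for Drs, 0.65 for CecC and 0.95 for Mtk. The list kept its sign but lost more than a log2 unit. In the shallow libraries its median was 0.46, with CecC at -0.24 and Def at -0.79, and in the deep ones it was 5.79. Leaving out single libraries, the median was 1.45 without 2 hr replicate 2 and 4.12 without 4 hr replicate 2. The depth classes also differ in which brains and controls they hold, and both low-roX1 libraries are deep, so depth and library cannot be told apart. Fat body markers are given below.

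Components of the pathways that induce these peptides differed less. Of 28 Toll and Imd genes tested, 4 (14.3%, against 6.08% of all tested genes) were higher and 0 lower, with 22 positive and a median of 0.57. grass, a serine protease that acts above Toll, was read in 8 of 9 injured libraries with 0, 35.6 and 249 CPM at the lowest, the median and the highest, against 3.86, 0.797 and 0 CPM in controls (log2FC 5.14 ± 1.49). Tab2, an adaptor of the Imd kinase TAK1, ranged from 12.7 to 32.1 CPM, against 7.72, 0 and 0 CPM, with no overlap (3.14 ± 1.16). mop, an endosomal protein needed for Toll signalling and also an ESCRT partner, was read in 7 of 9 injured libraries and in no control (173 reads, at least 11.7-fold higher). Its direction was thus fixed by the count filter. grass and Tab2, with at most 7.72 CPM in any control, also passed this filter through injured libraries alone, which favours a positive sign. grass and Tab2 kept 2.25 and 1.67 in the shallow libraries. Relish (Rel), the NF-kappaB factor of Imd, had 1.57 ± 0.94, and imd itself 1.33 ± 0.98. The median of the list was 0.41 without both low-roX1 libraries and 0.07 in the shallow libraries, and it was 0.38 without 2 hr replicate 2 alone.

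Of 9 JAK-STAT and Turandot genes, TotM alone was higher, a humoral stress peptide with 213 reads in 8 injured libraries and none in controls, at least 14.4-fold. With no control read, the direction of TotM was fixed by the count filter. Of 11 genes of the JNK cascade and of activity, Jra alone was higher, the fly Jun, with 467 reads against 13 (log2FC 2.96 ± 1.32). Each is 1 gene of a short list, 11.1% and 9.09% against 6.08% of all tested genes. Medians of both lists, 0.28 and 0.24, were small beside these single genes, and were -0.04 and 0.05 without 2 hr replicate 2. Among 15 heat shock genes 1 was higher (6.67%, near the 6.08% of all tested genes), Hsc70-5, a mitochondrial chaperone, with 44.9, 110 and 227 CPM in injured libraries against 50.2, 29.5 and 60.8 CPM in controls (1.47 ± 0.55). Hsp27 went the other way without passing (-1.32 ± 0.70), and the median was -0.03.

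ESCRT genes had the next largest median. Of 15 tested, 5 (33.3%, against 6.08% of all tested genes) were higher and 0 lower, with 12 positive and a median of 1.54. Beside CHMP2B and mop these were TSG101, a subunit of ESCRT-I with a log2FC of 4.15, Vps60 with 1.94, and lsn (Vps22 of ESCRT-II), with 0 to 33.0 CPM in injured libraries against 0, 0.797 and 0 CPM in controls (4.18 ± 1.58). CHMP2B and mop had no control read, and lsn had 0.797 CPM in a single control. The count filter therefore let CHMP2B, mop and lsn be positive only, and the share of 33.3% rests partly on them. The summed level was 1778 CPM at 2 hr replicate 2, 1328 CPM at 4 hr replicate 2 and 825 to 1244 CPM in the other injured libraries, against 757 to 1085 CPM in controls. The list median of 1.54 turned on single libraries and on which genes passed the filter. It was 0.49 without 2 hr replicate 2, 1.00 without 4 hr replicate 2, 1.09 without control replicate 2 and 0.31 without both low-roX1 libraries, each over the genes that passed the filter anew. On the same 15 genes it was 1.05 without both low-roX1 libraries, where 6 were higher, and 0.60 in shallow and 1.89 in deep libraries. Of 18 autophagy genes, which act on related membranes, 0 were higher (6.08% of all tested genes were), 9 were positive and 9 negative, and the median was 0.02. The difference between these lists was not tested.

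Genes of protein synthesis leaned upward by smaller amounts. Of 81 cytoplasmic ribosomal protein genes 12 (14.8%, against 6.08% of all tested genes) were higher and 71 positive, with a median of 0.52. Without both low-roX1 libraries 6 were higher and the median was 0.31. RpL4 had 80.4, 520 and 1960.4 CPM at the lowest, the median and the highest in injured libraries, against 154, 27.1 and 167 CPM in controls (2.47 ± 0.91). RpS3A and RpL23A had log2FCs of 1.99 ± 0.71 and 2.42 ± 0.90. In the shallow libraries these 3 were nearly level, at 0.10, 0.22 and 0.28, and the list median was 0.05. Of 66 mitochondrial ribosomal protein genes 10 (15.2%) were higher and 53 positive, with a median of 0.57. mRpL39 (180 reads in 7 injured libraries) and mRpS25 (114 reads in 6) had no control read, at least 12.2-fold and 7.71-fold higher, and mRpL46 had 175 reads against 2 (3.83 ± 1.38). The direction of mRpL39 and mRpS25 was fixed by the count filter. On the same genes the list had medians of 0.33 in shallow and 0.54 in deep libraries, and 0.38 without both low-roX1 libraries, where 10 were higher. Over the genes that passed the filter anew, its median was 0.16 without both low-roX1 libraries, 0.31 without 4 hr replicate 2 and 1.30 without control replicate 2.

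Genes of protein and vesicle turnover also had positive medians, mainly in the deep libraries. Of 30 proteasome subunits 6 (20%, against 6.08% of all tested genes) were higher and 0 lower, with a median of 0.48, which was 0.31 without 2 hr replicate 2 and 0.88 without control replicate 2. Rpt2, an ATPase of the regulatory particle, ranged from 11.1 to 46.5 CPM in injured libraries, against 3.86, 1.59 and 0 CPM in controls, without overlap (3.38 ± 0.99, and 3.08 in the shallow libraries). Prosbeta2, a catalytic subunit, had 2.45 ± 0.85, and Rpn3, of the lid, 1.56 ± 0.60. The list median was 0.15 without both low-roX1 libraries, 0.04 in the shallow and 1.01 in the deep ones, so these 3 genes were not typical of it. Of 18 subunits of the vacuolar proton pump, which acidifies synaptic vesicles and lysosomes, 3 (16.7%) were higher, with a median of 0.63. This median was 0.37 without both low-roX1 libraries, where 2 were higher, and 0.03 in shallow and 1.04 in deep libraries. Vha68-2 had 1.57 ± 0.62, and VhaPPA1-1 had 2.73 ± 1.11, or 0.13 in the shallow libraries.

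Mitochondrial lists were mixed. Of 30 respiratory chain and ATP synthase genes, 4 (13.3%, against 6.08% of all tested genes) were higher and 18 positive, with a median of 0.10 that stayed between -0.01 and 0.14 in the depth classes and without both low-roX1 libraries. SdhA, the flavoprotein of succinate dehydrogenase, had 8.46, 95.8 and 218 CPM in injured libraries, against 15.4, 14.3 and 0 CPM in controls (2.79 ± 0.93). SdhB, its iron-sulphur subunit, had 1.96 ± 0.80, and sun, the epsilon subunit of ATP synthase, 2.47 ± 1.16. Among 20 genes of mitochondrial transport and dynamics 2 (10%) were higher, with a median of 0.62 that was 0.23 without both low-roX1 libraries and 0.25 without 2 hr replicate 2. colt, a carnitine carrier, had 25.4, 44.9 and 159 CPM in injured libraries, against 23.2, 18.3 and 15.2 CPM in controls, without overlap (1.53 ± 0.67). Pink1, the kinase that marks damaged mitochondria, had 1.18 ± 0.54. Miro, prel and aralar1, an adaptor of mitochondrial transport, an intermembrane protein and an aspartate-glutamate carrier, had 1.88 ± 1.59, 1.67 ± 1.36 and 1.58 ± 0.83 and did not pass.

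Of 23 antioxidant genes 4 (17.4%, against 6.08% of all tested genes) were higher, with a median of 0.40. Without both low-roX1 libraries 1 was higher and the median was 0.22, and it was 0.05 in the shallow libraries and 0.66 without control replicate 2. Cat, catalase, had 2.76, 59.7 and 598 CPM in injured libraries, against 19.3, 7.97 and 30.4 CPM in controls (3.11 ± 1.42), and was -1.03 in shallow and 4.86 in deep libraries. Gclm, of glutathione synthesis, had 1.57 ± 0.71. Of 13 glycolytic enzymes, Pgk (1.59 ± 0.59) and Gapdh2 (1.31 ± 0.55) were higher (15.4%), with a median of 0.31, and without both low-roX1 libraries 1 was higher with a median of 0.22. Cell death genes, of which 5 were tested, had 0 higher and a median of -0.10.

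Neuronal genes leaned the other way without passing the test. Of 13 neuronal markers 0 passed the nominal rule either way, but 12 were negative, with a median of -0.49. nSyb, the synaptobrevin of neuronal vesicles, had 52.8, 454 and 732 CPM in injured libraries, against 633, 729 and 608 CPM in controls (-0.71 ± 0.57). Syt1, the calcium sensor of vesicle release, lay below all controls in 8 of 9 injured libraries (-0.67 ± 0.46), and elav, the pan-neuronal RNA-binding protein, had -0.48 ± 0.64. Of 21 ion channel genes 19 were negative (median -0.44), para, the voltage-gated sodium channel, among them with 0.943, 295 and 441 CPM against 433, 406 and 425 CPM. Rdl, a GABA receptor channel, had -0.68 ± 0.55, and 23 synaptic vesicle and active zone genes had a median of -0.35. tau, which binds microtubules in axons, had -0.40 ± 0.73. The lowest values of nSyb, elav, para, Rdl and tau were those of 2 hr replicate 2.

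Without both low-roX1 libraries the medians were -0.19 for neuronal markers, -0.22 for channels and -0.19 for synaptic genes. In the shallow libraries they were -0.05, -0.08 and 0.00, and in the deep ones -0.93, -0.80 and -0.72. The negative medians were thus larger in size among the deep libraries, which include both low-roX1 libraries, than among the shallow ones. In whole brains, fewer cells of a type and less RNA per cell cannot be told apart.

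Glial markers were mixed, with 3 of 14 higher (21.4%, against 6.08% of all tested genes), 11 positive and a median of 0.27. Without both low-roX1 libraries 2 were higher and the median was 0.31, and it was 0.54 without control replicate 2. alrm, an astrocyte leucine-rich repeat protein, had 13.6, 29.9 and 80.8 CPM in injured libraries, against 3.86, 6.38 and 0 CPM in controls (2.83 ± 0.85), and every injured library lay above every control. repo, the homeobox factor that defines glia, had 1.69, 15.1 and 103 CPM, against 7.72, 0.797 and 0 CPM (3.17 ± 1.40), and wrapper, a surface protein of glia that ensheathe neurons, had 8.46, 44.2 and 396 CPM, against 7.72, 2.39 and 30.4 CPM (3.49 ± 1.33). repo and wrapper were both highest at 4 hr replicate 2. alrm kept 2.47 without both low-roX1 libraries and 2.49 in the shallow libraries, where repo and wrapper had 1.52 and 0.70.

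Genes of the eye and of tissues around the brain were examined because single dissected brains can carry them. Of 26 photoreceptor and eye genes 2 were higher (7.69%, near the 6.08% of all tested genes), with 18 positive and a median of 0.50, which was 0.57 without both low-roX1 libraries and 0.29 without control replicate 2. They were Arr1, an arrestin (1.44 ± 0.63), and chp, chaoptin of the rhabdomere (1.96 ± 0.91). ninaE, the main rhodopsin, ran from 171 to 4888 CPM in injured libraries, against 676, 316 and 562 CPM in controls. Of 11 fat body genes 2 were higher (18.2%), with a median of 0.85, which was 0.81 without both low-roX1 libraries, again with 2 higher, and -0.03 in shallow and 2.32 in deep libraries. Yp2, a yolk protein made by fat body and ovary, had 241, 1092 and 9352 CPM, against 684, 135 and 547 CPM (2.59 ± 1.04), and Yp1 had 1.73 ± 0.87. Lsd-1, a lipid droplet protein, had 1.94, 15.0 and 1628 CPM, against 11.6, 1.59 and 0 CPM (5.53 ± 2.41), and its highest library was 2 hr replicate 2, which was also highest for the immune peptides. The summed fat body level was 37156 CPM at 2 hr replicate 2, 6038 CPM at 4 hr replicate 2 and 7743 to 38605 CPM in the other injured libraries, against 5057 to 10836 CPM in controls. Its part in the immune peptide values was not tested.

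Muscle genes (0 of 20 higher, median -0.06) and haemocyte markers (0 of 12, median 0.09) had no lean, although sls, the muscle protein sallimus, had -1.29 ± 0.73. No ovary gene and 1 testis gene had enough counts to be tested. Clock genes had a median of -0.29 and neuropeptides of 0.22, with 0 higher in each. Among 16 tubulin and motor genes, alphaTub84D (2.00 ± 0.74) and betaTub97EF (5.38 ± 1.82, with 412 reads against 1) were higher (12.5%, against 6.08% of all tested genes). alphaTub84B, the main neuronal alpha-tubulin, had 810, 1199 and 2131 CPM in injured libraries, against 753, 807 and 744 CPM in controls, with no overlap but a log2FC of 0.80 ± 0.37. alphaTub84B and alphaTub84D are nearly identical and may share reads.

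**Figure D5:**
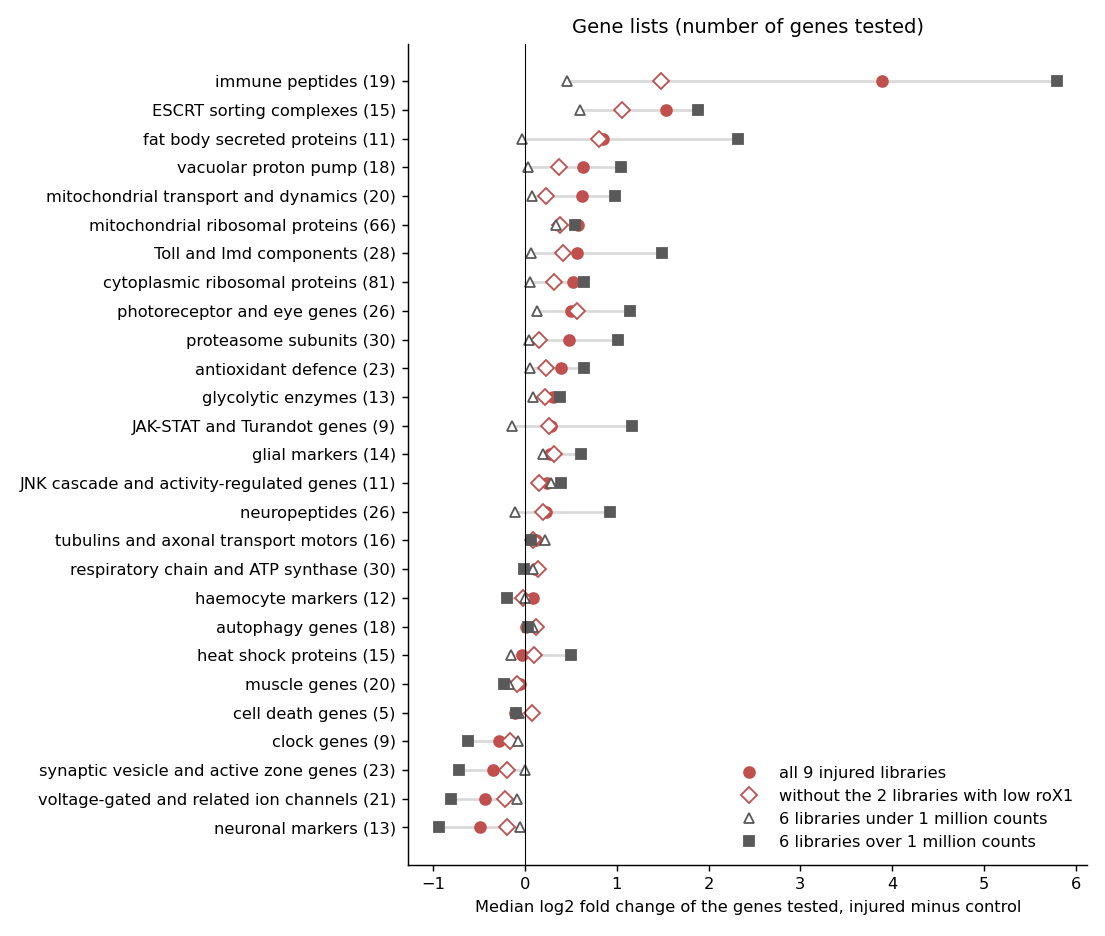
Median log2 fold change of injured over control for 27 gene lists, with the number of genes tested, for all 9 injured libraries (filled circles), without the 2 low-roX1 libraries (diamonds), in the 6 shallow libraries (triangles) and in the 6 deep ones (squares). Both low-roX1 libraries are among the deep ones. For immune peptides the medians were 3.89, 1.49, 0.46 and 5.79, and for neuronal markers -0.49, -0.19, -0.05 and -0.93.

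Genes that the study itself names were chosen on these samples, so their direction is not independent evidence. Of 29 such genes 23 were tested, 13 (56.5%, against 6.08% of all tested genes) were higher and 21 positive, with a median log2FC of 2.79. The median of this list was not taken by depth or without the low-roX1 libraries. They include the peptides, mop, repo, colt, SdhA, SdhB and mRpS25 given above and mRpS21, with 214 reads against 3 (3.29 ± 1.47).

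The 7 lower genes were few and differed by modest amounts. CG17746, which RefSeq lists with the synonym PP2C, a protein phosphatase family, had 28.9 to 82.7 CPM in injured libraries (median 56.6), against 116, 142 and 122 CPM in controls (-1.17 ± 0.41). CG11412, listed as Naa30A, a subunit of an N-terminal acetyltransferase, had 0 to 85.4 CPM (median 30.9), against 104.3, 91.6 and 137 CPM (-1.38 ± 0.57). In both, all 9 injured libraries lay below all controls. Frq2, a frequenin calcium sensor of synapses, had 1.89 to 105 CPM, against 124, 57.4 and 258 CPM (-1.66 ± 0.73), and bowl, a zinc finger factor, had 0 to 19.3 CPM, against 7.72, 55.8 and 60.8 CPM (-2.40 ± 1.10). toy, a Pax6 factor of the eye and mushroom body, had -1.03 ± 0.48, CG4928 -1.10 ± 0.51, and the noncoding CR44775, read almost only in control replicate 2 among controls, -2.49 ± 1.17. CG8314 (-0.91 ± 0.41), CHES-1-like, a forkhead factor (-0.85 ± 0.39), and Flo2, a flotillin (-0.94 ± 0.44), had as small a p with folds under the limit. In the shallow libraries CG17746, CG11412 and Frq2 kept -0.76, -0.90 and -1.23, toy and Flo2 had -0.06 and -0.03, and CR44775 was 0.73.

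Pooling treats the 3 times as alike, and a test across them found no gene that differed at an adjusted p under 0.05 among the 5918 (0%). The smallest adjusted p was 0.99988 (edgeR), and 89 genes had an unadjusted p under 0.05. By time, the median log2FC of immune peptides over control was 1.13 at 1 hr, 5.19 at 2 hr and 1.77 at 4 hr, the 2 hr group holding the library with 191623 CPM. Other lists differed less, with ESCRT at 0.96, 1.83 and 1.26 and neuronal markers at -0.17, -0.82 and -0.73. All 3 times share the same controls. AttC had log2FCs of 2.81, 8.87 and 5.0. CecB and DptA had the smallest p of the named peptides for a time difference, and in both 2 hr replicate 2 was far above all others. With no filter on low counts 40 genes were called across times, and 1, a10, when 2 hr replicate 2 was also left out.

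The same pooled comparison in the 12 male-labelled libraries tested 4474 genes and called 0, with 37 genes higher and 25 lower by the nominal rule used above. Of the 360 genes higher in female-labelled libraries, 199 were tested there, 90 with a positive and 109 with a negative log2FC and a median of -0.09. Tested directly, the difference in the change between the labels passed adjustment for 0 of 5462 genes (0%), with a smallest adjusted p of 0.259 (edgeR). At an unadjusted p under 0.05, the female-labelled log2FC minus the male-labelled one was over 1 for 331 of the 5462 genes and under -1 for 34. This difference is signed, so it does not say under which label a gene changed more. CG17746, among the 34, had -1.17 under the female label and 0.20 under the male label. CG13827 had the smallest p, with a fitted difference of 7.07 on the log2 scale, which depends on the prior count because no female-labelled control held a read, and a male-labelled log2FC of -0.19, and grass was among the next, with a difference of 6.31 and a male-labelled log2FC of -1.10. Immune peptides had a male-labelled median of 0.27 over 14 genes and ESCRT genes of 0.05 over 10 genes. The female-labelled medians of 3.89 and 1.54 were over 19 and 15 genes. CecA2 was among those not tested under the male label, so these medians are over unlike sets and their difference is no measure of a label contrast. Since roX1 does not separate the labels, the comparison is between labels as given.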

How the data were processed

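The authors extracted RNA from single brains, made QuantSeq 3′ FWD libraries and sequenced 50 bp reads. The submitters' processing notes name CASAVA 1.8.2, STAR 2.4, edgeR 3.22.3 and the dm3 build. For the counting step, the version, strand setting and annotation were not given in the sources used here, so reads of overlapping or antisense genes cannot be told apart. The deposited table holds raw read counts per gene, made by the authors without scaling, for 16995 genes. The authors also deposited 6 tables of fold changes and p-values of their own comparisons, which were not used.

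Counts of the 12 female-labelled libraries were fitted in R 4.3.3 with edgeR 4.0.16 (TMM scaling, filterByExpr, quasi-likelihood test, 1 mean for injured and 1 for control, no replicate block). A gene was called at an adjusted p under 0.05 with an absolute log2FC over 1. Genes are also listed at an unadjusted p under 0.05 and the same fold. Where no control held a read, the pooled controls were set to 3 counts, and pooled ratios carry 95% counting intervals. No molecular identifiers are named, so intervals cover counting error only. The same-numbered injured and control libraries did not deviate together (correlations of 0.014, -0.028 and -0.045), so the number was not taken as a pairing. Where nothing else is said, p-values measure the spread between single brains. In the pooled fit that spread also holds any differences between the 3 injury times, and with a mean per time 262 genes were higher.

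Named genes were the 10 smallest p each way, up to 3 members of each described list, genes the study names, the smallest p for times and labels, the 5 most abundant genes and sex check genes. TSG101, Vps60, CG34212, a10 and mtm were named after their values were seen. The members, the 30 lists and the tests were chosen with earlier results of these data known. Alternatives were other scalings, filters, tests (DESeq2 1.42.0, limma 3.58.1), thinning, a replicate block, all 24 libraries and left-out libraries. The fits within depth classes, and those without the low-roX1 libraries or control replicate 2 on the same genes, were chosen after seeing the data. The scripts were tested on simulated data with known changes. RefSeq names (Release 6 assembly) served only to give synonyms.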

Additional observations from a re-analysis of the deposited data

Results flagged for a closer look

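A library was singled out where its gap to the nearest of the other 8 injured libraries exceeded Dixon's 95% value for 9 samples, as a part of the whole range. Of 96 values tested 31 were, all of them high. Chance gives about 1 in 20 for independent values of symmetric spread, which these are not. Levels in CPM are skewed to high values, the genes vary together, and most were named for being high in injured libraries, so neither the number nor the direction is a result. They fell in the 2 libraries with low roX1, 25 at 2 hr replicate 2 and 6 at 4 hr replicate 2, and none in the other 7.

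At 2 hr replicate 2 the immune genes were AttC (7419 CPM, other injured libraries up to 415 CPM), CecA2 (2160.3, up to 44.2), IM4 (34028, up to 2397), CecB (1704, up to 28.0), CecC (3963, up to 252), Def (379, up to 29.6), DptA (2241, up to 74.6), DptB (2796, up to 120.3), Drs (5569, up to 2190.4), Mtk (10218, up to 429), grass (249, up to 62.1), imd (156, up to 40.4) and Rel (1212, up to 312). Genes of metabolism and mitochondria were Gclm (677 CPM), Cat (598), sun (519.6), colt (159), aralar1 (94.3), Gapdh2 (1495) and Lsd-1 (1628, other injured libraries up to 86.6 CPM). The remaining genes in that library were RpL23A (2225 CPM), RpL41 (25841), Vha68-2 (184), VhaPPA1-1 (219) and betaTub97EF (207).

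At 4 hr replicate 2 they were CG1441 (71.8 CPM, other injured libraries 10.2 to 37.5), mtTFB2 (29.1, 3.61 to 16.1), mop (64.0, up to 23.6), mRpL39 (69.8, up to 15.3), wrapper (396, 8.46 to 112) and repo (103, 1.69 to 44.9). What goes with these values in the brains or libraries was not tested.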

How the results depend on the processing

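No gene was called under any alternative to the pooled comparison except 1, CG34212, in the shallow libraries (under 1000000 counts). Higher genes, 360 as reported, were 568 with no filter on low counts, 171 with limma-voom and sample weights, 48 of 1078 genes at equal depth, 184 without both low-roX1 libraries and 103 in the shallow libraries, and ran from 151 to 548 as each library was left out. They were 162 without control replicate 2 on the same genes, an alternative chosen after seeing the data, as were the other fits on the same genes. Lower genes, 7 as reported, were 27 with library size alone, 90 with no filter, 11 with a stricter filter, 149 with limma-voom, 19 with edgeR's likelihood ratio test, 12 with a mean per time, 38 with the replicate block, 45 with all 24 libraries in the fit and 15 without both low-roX1 libraries. On the same genes they were 40 without both low-roX1 libraries, 43 in shallow and 44 in deep libraries, and they ran from 2 to 24 as each library was left out. The share of higher among these genes was 98.1%, against 53.4% with limma-voom, 86.3% with no filter and 70.5% in the shallow libraries. With the replicate block 308 genes were higher, 277 of them among the 360, and 0 were called. The median log2FC of all genes was 0.08 with TMM, -0.14 with library size alone, 0.17 with RLE size factors and 0.51 with no filter. The time difference gave 40 genes with no filter, and 1 when 2 hr replicate 2 was also left out. The cause of these shifts was not tested.

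Of 92 named genes 80 kept their sign under every alternative in which they were tested, which for mop was 20 and for MRE16 29. Genes with no control read could not turn, and others were picked for a small p in these same data. The count of 80 is therefore no measure of how firm the signs are. In the shallow libraries the log2FC turned to 0.73 for CR44775, -0.24 for CecC, -0.79 for Def, -0.72 for imd, -0.41 for Rel, -1.03 for Cat, -0.70 for prel, -0.0087 for Arr1, -0.24 for Yp1, 0.13 for roX1 and 0.12 for tau. CR44775 was 0.34 without control replicate 2 on the same genes. RpL15 was -0.089 with library size alone, -0.057 without both libraries under 100000 counts, -0.25 in the deep libraries and -0.10 to 0.58 as each library was left out. Among these 92 genes the smallest adjusted p under any alternative to the pooled comparison was 0.0656 (edgeR's likelihood ratio test). CG34212, called in the shallow libraries, is not one of the 92. Depth limited most values, since 3 counts were worth 1.94 to 44.9 CPM in injured libraries and 2.39 to 45.6 CPM in controls.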
